A study of Mus musculus with 6 samples.

Results

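Solute carriers are the membrane proteins, other than ion channels and ATP-driven pumps, that move amino acids, sugars, nucleosides, metals, ions and metabolites across the plasma membrane and the membranes of organelles. Their mRNAs were examined here in RAW 264.7 cells, a mouse macrophage line derived from a tumour induced by Abelson murine leukaemia virus. All features of the array were taken whose annotated gene symbol is Slc, a family number, the letter a and a member number, except those of 7 genes of cationic amino acid and cystine uptake, iron handling and glucose uptake (Slc7a1, Slc7a2, Slc7a11, Slc40a1, Slc11a1, Slc11a2 and Slc2a1). This gave 226 of 16281 features, for 165 of 10525 genes. The symbols were checked against RefSeq gene identifiers, and all 165 matched.

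The RNA was from untreated cells and from cells kept for 8 h with lipopolysaccharide (LPS), a glycolipid of the outer membrane of Gram-negative bacteria, at 100 ng/ml together with LPS-binding protein, the serum protein that passes LPS to its receptor, at 100 pM. Both groups were the same line, and the labels give no genetic change in either. Each of 6 two-colour arrays held RNA of both groups. The arrays form 3 numbered sets of a forward array, with treated RNA in the dye Cy5, and a reversed array, with treated RNA in Cy3. Whether the sets came from separate cultures is not stated in the labels, and the spread between sets that p-values measure may be technical. The deposited values are log2 ratios of the channels, and no signal of a single channel was used, so whether a carrier was present at a high or a low level cannot be given, nor can the line be checked by the level of its markers. As ratios, 5 of the 8 macrophage marker genes tested rose and 2 fell, while 0 of 12 fibroblast, epithelial, T cell and B cell marker genes passed the test in limma and 2 did at an unadjusted p under 0.05. Precision is limited by the small number of arrays.

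Every ratio is given as treated over untreated on the log2 scale, so that 1 is a doubling. Every sign below rests on a likely direction, Cy5 over Cy3, since the numerator is not stated and the labels use control for Cy3 and test for Cy5. A value of exactly 0 was taken as not measured, a set counted only where both of its arrays measured the gene, and a gene was tested where at least 2 sets did. The mean and SD of a gene are over these set means, with n = 3 sets unless stated. A dye effect cancels in a set mean, so the SD does not include the gap between dye orientations, and the 6 array values are given for the leading genes. Adjusted p-values are from limma's moderated test over all 10088 genes tested, adjusted by Benjamini-Hochberg and called under 0.05.

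In macrophages, carriers feed proliferation with amino acids, nucleosides and vitamins, set the pH and the volume of the cell, load mitochondria with substrates, and move zinc, copper and peptides in and out of the vesicles that take up microbes. Several of them work as exchangers, so their direction of transport depends on the gradients across the membrane. A ratio of mRNA says nothing about the transport itself.

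Of the 165 genes, 153 could be tested, 141 of them on 3 sets and 12 on 2 sets. Treated cells had 23 genes higher and 34 lower at an adjusted p under 0.05. Together these 57 were 37.3% of the carriers tested, beside 34.2% of all genes tested (17.4% higher and 16.8% lower), so the share of carriers that changed was near the background. The median log2 ratio of the carriers was -0.02 and that of all genes -0.01. The median size of change among the 57 was 0.33. Without set 3, 16 rose and 14 fell. Among the genes called on all sets, 3 rises and 0 falls exceeded 2-fold, and 8 rises and 3 falls exceeded 1.5-fold. The background for these counts was 2.86% and 0.466% of all genes at 2-fold, and 5.57% and 2.68% at 1.5-fold. Beside the 0 falls of more than 2-fold stand 39 carriers that were lower at an unadjusted p under 0.05, of any size. Tested feature by feature, 30 of 188 carrier features were higher and 34 lower, beside 32.7% of all features. Of the 57 called genes, 46 had the same sign on every array that measured them, 20 higher and 26 lower.

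The 3 genes that rose most encode a lysosomal peptide carrier, the serotonin transporter and a copper carrier. Slc15a3 carries histidine and short peptides, among them fragments of bacterial cell wall, across the endolysosomal membrane. Its log2 ratios were 2.25, 2.26 and 2.10 on the forward arrays of sets 1, 2 and 3 and 2.05, 2.10 and 2.00 on the reversed arrays. The mean was 2.13 ± 0.07 (SD, n = 3 sets), or 4.36-fold, with limma's adjusted p = 3.27e-06, and both of its features lay close together, with means of 2.03 and 2.22. Every array was high, and the values differed little between sets and dyes.

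Slc6a4, which takes serotonin back into neurons and platelets and is the target of antidepressants, had log2 ratios of 1.94, 1.55 and 2.14 on forward arrays and 1.98, 2.23 and 2.19 on reversed arrays. Its mean was 2.00 ± 0.14, a 4.01-fold rise (adjusted p = 1.13e-05 in limma). The 2 features of Slc6a4 had means of 1.86 and 2.15, so the rise did not rest on 1 spot. Both are annotated to the same sequence, as are the 2 features of Slc15a3 and the 2 of Slc30a7. They may therefore be repeats of 1 probe, and their closeness does not exclude signal from another transcript. The forward array of set 2 was the lowest of the 6 and still far above 0.

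Slc31a2 belongs to the copper transporter family and sits mainly on endosomes and lysosomes. It had log2 ratios of 1.92, 1.90 and 1.81 in the first orientation and 1.82, 1.74 and 1.74 in the second, with a mean of 1.82 ± 0.05, or 3.53-fold (adjusted p = 5.01e-06 in limma). All 3 genes also passed a test against a change of 1.5-fold, and no other carrier did in either direction. That test called 3.39% of all genes higher and 0.833% lower, and among carriers an unadjusted p under 0.05 was reached by 5 higher and 1 lower.

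**Figure D1:**
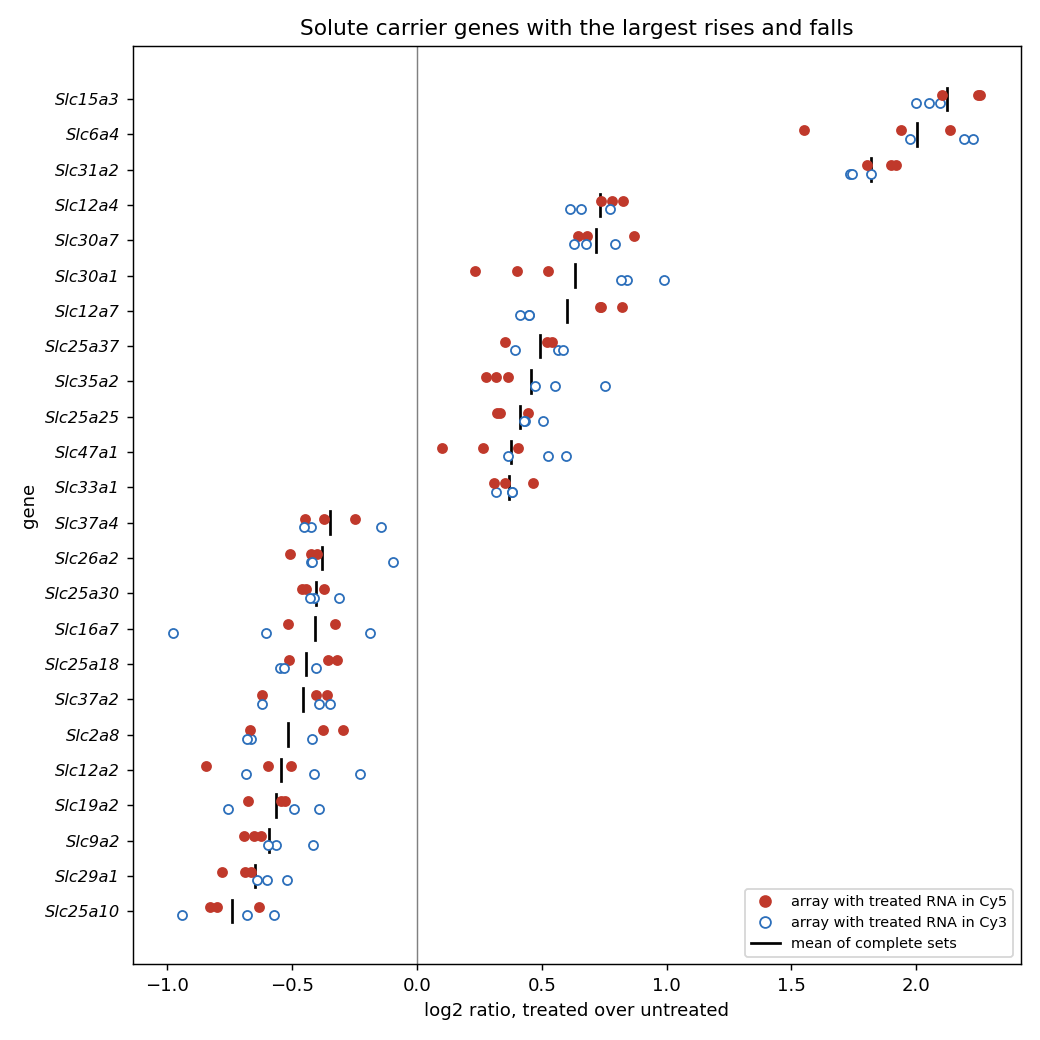
Log2 ratio (treated over untreated, horizontal axis) of the 12 carriers with the largest rises and the 12 with the largest falls among called genes of 1 sign (vertical axis). Filled points are forward arrays (treated RNA in Cy5), open points reversed arrays (treated RNA in Cy3), and the black bar is the mean over sets measured on both arrays. Slc15a3, Slc6a4 and Slc31a2 stand apart between 1.55 and 2.26, and no array of the other 21 genes reaches 1. Slc16a7 was measured on 5 arrays, and the bar leaves out its array of set 1.

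The falls were smaller and closely graded. Slc25a10, the mitochondrial dicarboxylate carrier that exchanges malate and succinate for phosphate, had log2 ratios of -0.83, -0.80 and -0.63 on forward arrays and -0.94, -0.57 and -0.68 on reversed arrays. Its mean of -0.74 ± 0.12 is a 1.67-fold decrease (limma's adjusted p = 0.000354). Slc29a1, the equilibrative nucleoside transporter that serves nucleoside salvage, stood at -0.69, -0.78 and -0.66 in the first orientation and at -0.60, -0.64 and -0.52 in the second. Its mean was -0.65 ± 0.06 (adjusted p = 0.000237 in limma). The sodium-proton exchanger gene Slc9a2 followed at -0.59 ± 0.06, and Slc19a2, which imports thiamine, at -0.57 ± 0.13. All 4 are from the falls listed among called carriers with 1 sign on every array. An array on the other side of 0 was therefore excluded by that rule.

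Promoter windows of the genes that led each direction are shown because their ratios bear on the transcripts that start there. RefSeq windows (GRCm38.p6) were used for the 3 largest rises and 3 largest falls that have an entry, each as the 250 bases before the annotated start, read 5′ to 3′ along the gene. Slc15a3 and Slc9a2 had no entry and are named only. Where a gene has several annotated starts, as Slc29a1 does with 8, the most upstream was taken. Capitals mark matches, on either strand, to a loose NF-kappaB pattern (GGG and CC with 5 bases between) or to the core of the metal response element (TGCACNC or TGCGCNC), which is bound by the zinc-sensing factor MTF1. Patterns for the interferon-stimulated response element (GAAA and GAAA with 2 bases between), AP-1 (TGANTCA) and the E-box (CACGTG) were searched in the same way.
Slc6a4, chr11:76998347-76998596, plus strand: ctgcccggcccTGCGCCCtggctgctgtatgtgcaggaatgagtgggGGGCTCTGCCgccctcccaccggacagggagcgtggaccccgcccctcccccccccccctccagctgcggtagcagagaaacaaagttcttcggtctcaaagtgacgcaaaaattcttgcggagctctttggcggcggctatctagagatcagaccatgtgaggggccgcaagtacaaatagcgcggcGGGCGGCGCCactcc
Slc31a2, chr4:62286179-62286428, plus strand: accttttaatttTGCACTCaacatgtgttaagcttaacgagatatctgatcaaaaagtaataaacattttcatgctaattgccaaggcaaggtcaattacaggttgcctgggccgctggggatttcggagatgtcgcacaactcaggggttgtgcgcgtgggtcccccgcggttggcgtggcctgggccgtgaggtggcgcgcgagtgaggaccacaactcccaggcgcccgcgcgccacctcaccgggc
Slc12a4, chr8:105966116-105966365, minus strand: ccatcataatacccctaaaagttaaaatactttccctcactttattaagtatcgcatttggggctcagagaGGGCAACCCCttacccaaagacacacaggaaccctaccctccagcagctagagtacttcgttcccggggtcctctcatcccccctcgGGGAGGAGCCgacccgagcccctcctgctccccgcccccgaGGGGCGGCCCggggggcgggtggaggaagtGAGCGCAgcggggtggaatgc
Slc25a10, chr11:120491587-120491836, plus strand: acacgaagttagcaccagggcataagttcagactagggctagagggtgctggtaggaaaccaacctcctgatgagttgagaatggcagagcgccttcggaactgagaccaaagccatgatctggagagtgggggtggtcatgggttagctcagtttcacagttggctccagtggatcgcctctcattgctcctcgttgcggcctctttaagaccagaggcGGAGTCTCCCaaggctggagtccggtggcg
Slc29a1, chr17:45599619-45599868, minus strand: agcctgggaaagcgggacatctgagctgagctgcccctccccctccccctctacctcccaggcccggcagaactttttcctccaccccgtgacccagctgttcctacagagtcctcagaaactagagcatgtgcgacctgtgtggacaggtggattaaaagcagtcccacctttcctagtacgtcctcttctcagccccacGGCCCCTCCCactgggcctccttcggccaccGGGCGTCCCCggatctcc
Slc19a2, chr1:164248796-164249045, plus strand: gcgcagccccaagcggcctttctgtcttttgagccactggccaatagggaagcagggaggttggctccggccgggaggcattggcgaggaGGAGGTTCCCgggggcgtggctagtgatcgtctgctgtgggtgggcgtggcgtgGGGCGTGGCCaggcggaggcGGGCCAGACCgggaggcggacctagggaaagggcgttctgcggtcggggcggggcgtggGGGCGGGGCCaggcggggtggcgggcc

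Among these 6 windows, the NF-kappaB pattern was found in those of Slc6a4, Slc12a4, Slc25a10, Slc29a1 and Slc19a2, and not in that of Slc31a2. It is met in 45.8% of all 32851 RefSeq windows of this length and so occurred on both sides, in 13 of 25 windows of carriers that rose, 22 of 44 of carriers that fell and 61.1% of the 95 of carriers tested and not called. The metal response core was present upstream of Slc6a4, Slc31a2 and Slc12a4. It was found in 10 of the 25 windows of carriers that rose, 29.5% of those of carriers that fell, 24.2% of those of carriers not called, and 21.4% of all windows. Counted by genes that have a window, these were 10 of 19 that rose, 11 of 26 that fell and 22 of 74 not called. Over all genes with a window the count was 6420 of 27025. The difference was not tested. The interferon element was in 0 of the 25 windows of carriers that rose, 2.3% of those of carriers that fell, 1.1% of those of carriers not called and 3.0% of all windows. AP-1 was likewise in 0 of those 25 windows, 13.6% of the windows of carriers that fell, 2.1% of those of carriers not called and 6.7% of all. The E-box was in 5 of the 25, in 11.4% for carriers that fell, in 14.7% for carriers not called and in 6.0% of all windows, so its share was above that of all windows in called and uncalled carriers alike. The E-box reads the same on both strands. A match describes the letters of a window, not a bound site, and windows of the same gene can overlap.

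Carriers of metals were examined next. Of 16 genes tested, 4 rose and 3 fell (median log2 ratio 0.07), and the rises were the larger changes. The called share was 43.8%. For comparison here and in the classes and families below, 34.2% of all genes tested were called, 17.4% higher and 16.8% lower. Besides Slc31a2, the zinc carriers Slc30a7, Slc30a1 and Slc39a7 rose. Slc30a7 moves zinc into the Golgi, and its log2 ratios were 0.64, 0.87 and 0.68 on forward arrays and 0.63, 0.79 and 0.68 on reversed arrays (mean 0.72 ± 0.10, limma's adjusted p = 0.000284). Its 2 features had means of 0.71 and 0.73.

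Slc30a1 exports zinc at the plasma membrane and is a classical target of the metal response element. It was higher on 6 of 6 arrays, but the 2 orientations did not overlap, with 0.23, 0.40 and 0.52 on forward arrays against 0.99, 0.84 and 0.82 on reversed arrays. The mean was 0.63 ± 0.03 (adjusted p = 0.000207 in limma), and its features had means of 0.40 and 0.86. Slc39a7, which releases zinc from the endoplasmic reticulum and Golgi into the cytosol, rose by 0.35 ± 0.09. These 3 proteins carry zinc away from the cytosol (Slc30a1 and Slc30a7) or into it (Slc39a7), so the rises were not confined to 1 direction of transport.

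The zinc carriers that fell changed by less. Slc39a3, a plasma membrane importer, had a log2 ratio of -0.20 ± 0.05 (adjusted p = 0.0892 in limma without set 3), Slc39a11 one of -0.19 ± 0.03, and Slc30a5, a carrier of the secretory pathway, one of -0.16 ± 0.07. Slc30a5 was close to the threshold (limma's adjusted p = 0.0484), and its orientation means were -0.28 and -0.04. Those of Slc39a11 were -0.10 on forward arrays and -0.28 on reversed arrays. Slc39a8, the zinc and manganese importer, stood at -0.02 ± 0.20 (adjusted p = 0.85), with too wide a spread between sets to place it. Over both zinc families together, 3 of 14 genes rose and 3 fell.

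**Figure D2:**
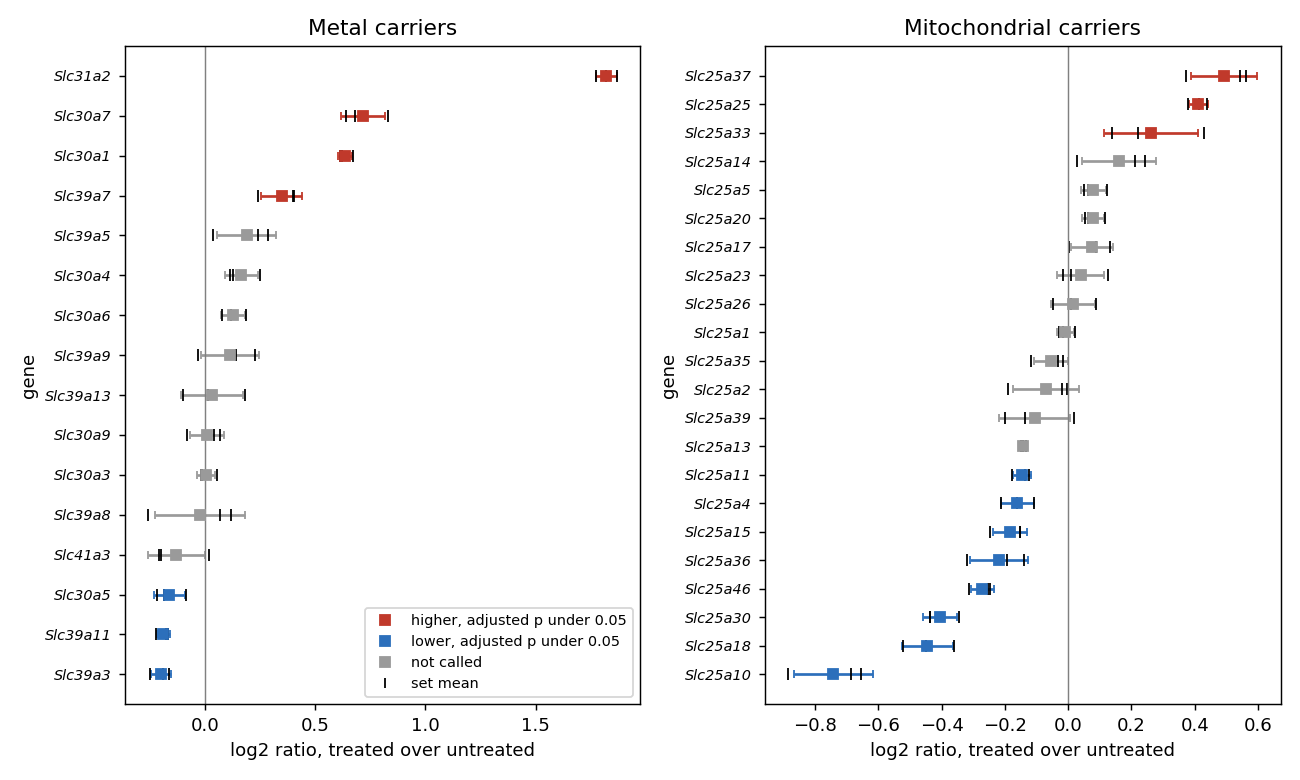
Mean log2 ratio (horizontal axis, treated over untreated) of each metal carrier and each mitochondrial carrier tested (vertical axes). Squares are means with the SD over sets, black ticks the set means, and colours the call at an adjusted p of 0.05. Slc31a2 lies at 1.82, more than 1 unit above every other metal carrier, whereas the mitochondrial carriers spread from -0.74 to 0.49 with 8 called lower and 3 called higher.

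Mitochondrial carriers of the Slc25 family exchange metabolites, nucleotides and ions across the inner membrane. Of 22 tested, 8 fell and 3 rose, with a median of -0.06. Among those that fell after Slc25a10 were Slc25a18, a glutamate carrier, at -0.45 ± 0.08, Slc25a30 at -0.41 ± 0.05, and Slc25a46, an outer membrane protein that acts in mitochondrial shape, at -0.27 ± 0.04. The 6 arrays of Slc25a18 ran from -0.55 to -0.32 and those of Slc25a30 from -0.46 to -0.31. Both are among the largest falls listed, for which 1 sign on every array was required. Slc25a15, which exchanges ornithine and citrulline in the urea cycle, fell by 0.18, and the heart and muscle adenine nucleotide carrier Slc25a4 fell by 0.16 with array values from -0.33 to 0.11.

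Several other carriers of the inner membrane were close to the threshold or did not pass. Slc25a11, which exchanges oxoglutarate for malate, had a log2 ratio of -0.15 ± 0.03 (limma's adjusted p = 0.0484), and its call was lost in 12 of 13 other fits but kept with the 6 arrays fitted separately, where limma's adjusted p was 0.0234. Slc25a1, the citrate carrier, stood at -0.01 ± 0.03 (adjusted p = 0.898), with a 95% interval of -0.117 to 0.099 that leaves room only for small changes. Slc25a13, the aspartate and glutamate carrier, was at -0.14 ± 0.01 (adjusted p = 0.0501). Slc25a5, the widely expressed adenine nucleotide carrier, was at 0.08 ± 0.04 (adjusted p = 0.232).

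The 3 mitochondrial carriers that rose differ in what they carry. Slc25a37, mitoferrin 1, brings iron to the matrix for heme and iron-sulfur cluster synthesis. Its log2 ratios were 0.52, 0.54 and 0.35 on forward arrays and 0.56, 0.59 and 0.39 on reversed arrays, with a mean of 0.49 ± 0.10 (adjusted p = 0.00128 in limma). Slc25a25, an ATP-Mg and phosphate carrier regulated by calcium, rose by 0.41 ± 0.03, and Slc25a33, a pyrimidine nucleotide carrier, by 0.26 ± 0.15. Set 3 was the lowest for Slc25a37 in both orientations, and set 1 the highest for Slc25a33.

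Carriers of inorganic ions moved in both directions, with 4 of 23 higher, 7 lower and a median of -0.01. The called share was 47.8%, beside 34.2% of all genes tested. The potassium-chloride cotransporters, which let salt leave the cell as it shrinks, rose. Slc12a4 had log2 ratios of 0.78, 0.74 and 0.82 on forward arrays and 0.66, 0.61 and 0.77 in the other orientation (mean 0.73 ± 0.06, limma's adjusted p = 0.000163), and Slc12a7 had 0.74, 0.82 and 0.73 against 0.45, 0.41 and 0.45 (mean 0.60 ± 0.01, adjusted p = 0.000226). Slc12a2, the sodium-potassium-chloride cotransporter that brings salt in, fell, with -0.85, -0.51 and -0.60 in the first orientation and -0.68, -0.23 and -0.41 in the second (mean -0.55 ± 0.20, adjusted p = 0.00358). These genes were listed from called carriers with 1 sign on every array. The arrays of Slc12a2 and those of Slc12a4 and Slc12a7 therefore could not overlap.

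The sodium-proton exchangers also divided. Slc9a2 fell, as given above, and Slc9a4 rose by 0.25 ± 0.04, whereas Slc9a3 had a log2 ratio of -0.08 ± 0.12 (limma's adjusted p = 0.33). The mean of Slc9a4 was 0.13 on forward arrays and 0.38 on reversed arrays. Of the phosphate importers, Slc20a1 rose by 0.22 ± 0.04 (adjusted p = 0.0131, and 0.123 without set 3) and Slc20a2 fell, at -0.21 ± 0.04 (adjusted p = 0.015). Slc20a2 was between -0.07 and -0.03 on forward arrays and between -0.42 and -0.30 on reversed arrays. Slc26a2, a sulfate carrier needed to sulfate proteoglycans, was at -0.38 ± 0.12, with features at -0.36 and -0.40. Of the bicarbonate carriers of family Slc4, 3 of 6 passed, all lower, and each of these 3 (Slc4a3, Slc4a8 and Slc4a10) had arrays on both sides of 0. The 2 features averaged for Slc4a3 disagreed. One had a mean of -0.51 and was below 0 on all 6 arrays, and the other had a mean of -0.04 with both signs. Slc4a8 (-0.15 ± 0.04) had a mean of 0.10 on forward and -0.40 on reversed arrays, the only called carrier whose orientation means differed in sign.

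Carriers of nucleotide sugars, sugar phosphates and acetyl-CoA supply the Golgi and endoplasmic reticulum. They were the class with the largest called share, 75.0% of 8 genes, 4 higher and 2 lower, beside 34.2% of all genes tested. Slc35a2, the UDP-galactose carrier of the Golgi, had log2 ratios of 0.32, 0.28 and 0.37 on forward arrays and 0.47, 0.75 and 0.55 on reversed arrays (mean 0.46 ± 0.06, limma's adjusted p = 0.000954). Slc33a1, which brings acetyl-CoA into the endoplasmic reticulum, rose by 0.37 ± 0.02, with all arrays between 0.31 and 0.47. A second feature of Slc33a1 gave a value on 2 arrays only (2.60 and 1.52, both on reversed arrays) and was not used. Slc37a3 rose by 0.34 ± 0.02 and Slc35a1, the CMP-sialic acid carrier, by 0.22 ± 0.11.

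Both genes of this class that fell belong to family Slc37. Slc37a4 delivers glucose 6-phosphate to glucose 6-phosphatase in the endoplasmic reticulum and stood at -0.35 ± 0.05 (adjusted p = 0.00234 in limma). Slc37a2, a related sugar phosphate carrier known from macrophages, had log2 ratios of -0.36, -0.62 and -0.40 on forward arrays and -0.35, -0.62 and -0.39 on reversed arrays (mean -0.46 ± 0.14, adjusted p = 0.003). Set 2 was the lowest set of Slc37a2 in both orientations.

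Sugar carriers and sodium-coupled carriers of families Slc2, Slc5 and Slc50 had 4 of 9 genes lower and 0 higher. The called share was 44.4%, beside 34.2% of all genes tested, and 1 to 6 were called with a set left out. In limma 0 were also higher at an unadjusted p under 0.05. All 9 means were below 0, and the median of -0.18 was the lowest of the 11 classes. The glucose carrier Slc2a1 was left out from the start, so these counts do not cover it. Slc2a8, a glucose carrier of intracellular membranes, had 6 arrays between -0.68 and -0.29 and a mean of -0.52 ± 0.14 (limma's adjusted p = 0.00185). Slc2a9, the urate carrier, was at -0.25 ± 0.05, Slc50a1 at -0.25 ± 0.08, and the insulin-responsive glucose carrier Slc2a4 at -0.18 ± 0.05 with arrays from -0.36 to 0.03. Slc50a1 had a mean of -0.41 on forward arrays and -0.10 on reversed arrays. Slc2a3, a high-affinity glucose carrier, stood at -0.15 ± 0.14 (adjusted p = 0.133) and the inositol carrier Slc5a3 at -0.35 ± 0.32 (adjusted p = 0.0654). For Slc5a3, 5 arrays lay between -0.65 and -0.44 and the forward array of set 2 at 0.57.

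**Figure D3:**
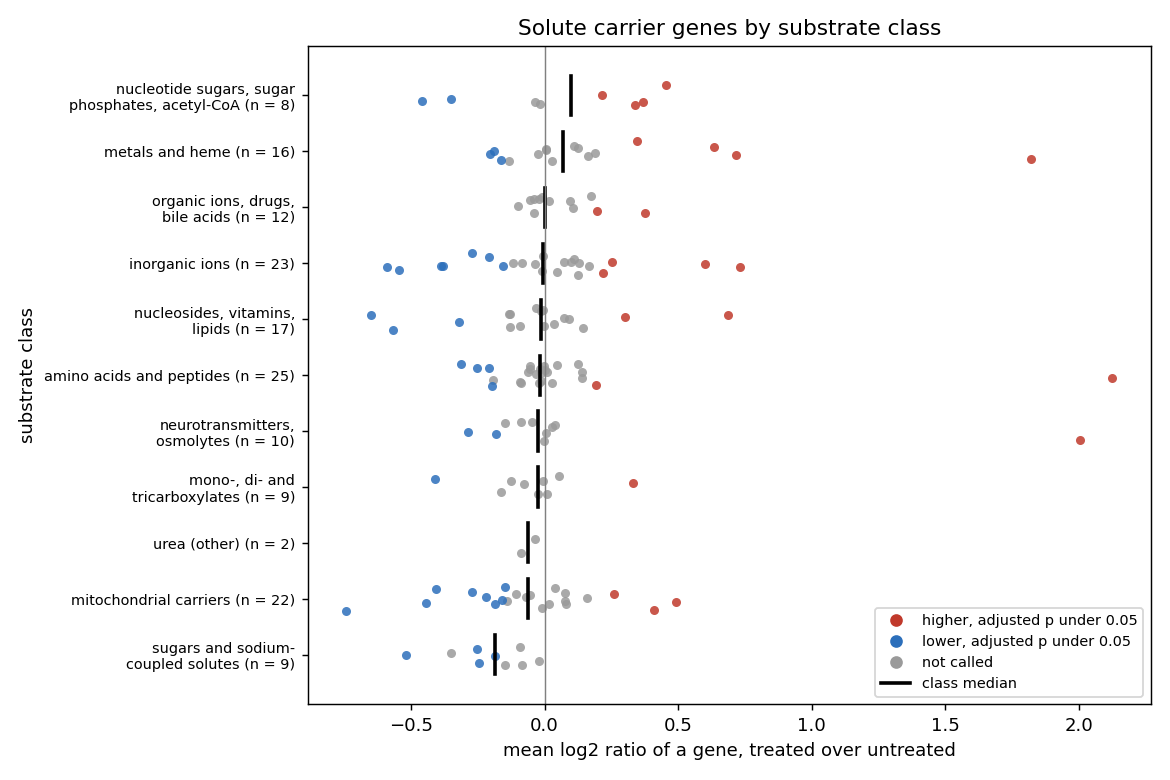
Mean log2 ratio (horizontal axis, treated over untreated) of the 153 carriers tested, 1 point a gene, by substrate class (vertical axis, with the number of genes). Colours give the call at an adjusted p of 0.05, and black bars the class medians, which run from -0.18 for sugars to 0.10 for nucleotide sugars. Points are spread vertically at random for legibility.

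In the class of nucleosides, vitamins and lipids, 2 of 17 genes rose and 3 fell. Both equilibrative nucleoside transporters of the plasma membrane fell, Slc29a2 to -0.32 ± 0.07 beside Slc29a1, while Slc29a3, the lysosomal one, had a mean of 0.00 ± 0.03 (limma's adjusted p = 0.997) over arrays that ran from -0.35 to 0.39. Slc28a2, the concentrative purine nucleoside transporter, rose by 0.69 ± 0.53 (adjusted p = 0.0338), with set means of 1.22, 0.16 and 0.68 and 1 array below 0. Without set 3 its adjusted p was 0.088. Slc23a2, a vitamin C importer, was called higher at 0.30 ± 0.04, but its arrays read 0.57, 0.70 and 0.49 on forward arrays and -0.05, -0.01 and 0.12 on reversed arrays. Of the 5 fatty acid carriers of family Slc27, 0 passed in limma and 1 had an unadjusted p under 0.05.

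Amino acid and peptide carriers had 2 of 25 genes higher and 4 lower, with 2 to 7 called when 1 set was left out. Beside Slc15a3, Slc3a2 rose. Slc3a2 is the heavy chain that brings the light chains of family Slc7 to the cell surface, and it had log2 ratios of 0.35, 0.38 and 0.25 on forward arrays and 0.14, 0.05 and -0.0003 on reversed arrays (mean 0.19 ± 0.06, limma's adjusted p = 0.0245). Leaving out set 1 or set 3 ended this call (adjusted p = 0.0717 and 0.0804). Of the 8 light chains and relatives of family Slc7 tested, 0 passed in limma, beside 34.2% of all genes tested. At an unadjusted p under 0.05, 2 were higher. Slc7a1, Slc7a2 and Slc7a11 were left out from the start, so the count does not cover the whole family.

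Slc7a5, the light chain for large neutral amino acids, illustrates the dye gap. Its ratios were 0.28, 0.24 and 0.09 on forward arrays and -0.18, -0.28 and -0.28 on reversed arrays, so that each orientation pointed its own way and the mean was -0.02 ± 0.07 (adjusted p = 0.785 in limma). Slc1a5, the glutamine carrier, had 0.26, 0.30 and 0.42 against -0.10, -0.08 and 0.04, with a mean of 0.14 ± 0.08 (adjusted p = 0.0842). Fitting the 6 arrays separately with a dye term brought the adjusted p of Slc1a5 to 0.03.

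In the amino acid and peptide class, 4 genes fell. The class follows family numbers, so membership does not give the substrate of each gene. They were Slc43a1, which carries branched-chain amino acids, at -0.25 ± 0.03, Slc43a3 at -0.20 ± 0.04, Slc38a10 at -0.21 ± 0.07, and Slc1a2. Slc1a2 is the main glutamate carrier of astrocytes, and its 3 features disagreed. One had a mean of -1.01 and the others 0.09 and -0.02, so the gene mean of -0.31 ± 0.08 (limma's adjusted p = 0.00545) describes none of them.

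The remaining classes held few calls. Of 9 carriers of mono-, di- and tricarboxylates, Slc16a7, a pyruvate and lactate carrier, fell, at -0.41 ± 0.21 over 2 sets (limma's adjusted p = 0.0237), and Slc16a10, which carries aromatic amino acids, rose by 0.33 ± 0.11 over 2 sets (adjusted p = 0.0189). Slc16a3, the lactate exporter of glycolytic cells, had a log2 ratio of -0.01 ± 0.11 with a 95% interval of -0.145 to 0.13, and Slc16a1 stood at -0.08 ± 0.11 (adjusted p = 0.351). Of 12 carriers of organic ions, drugs and bile acids, Slc47a1, an exporter of organic cations and drugs, rose by 0.38 ± 0.13 and Slc10a7 by 0.20 ± 0.08, and 0 of the 8 tested members of family Slc22 passed in limma, with 1 at an unadjusted p under 0.05.

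Among 10 carriers of neurotransmitters and osmolytes, Slc6a4 rose and Slc6a9, a glycine carrier, and Slc6a12, a betaine carrier, fell, at -0.29 ± 0.15 and -0.18 ± 0.09. The 2 features of Slc6a9 had means of -0.34 and -0.24, but on the reversed array of set 2 they read -0.76 and 0.54. Slc6a12 had a mean of -0.03 on forward arrays and -0.33 on reversed arrays. Without set 3 the adjusted p of Slc6a9 was 0.125 in limma. The taurine carrier Slc6a6 could not be tested: it was measured on 2 arrays only, at -2.27 and -2.25, both on forward arrays. Values of that size also occurred with opposite signs in the 2 orientations. Slc10a2 stood at -2.14 on forward arrays and 2.04 on reversed arrays in set 1 and was not measured elsewhere. A second feature of Slc6a12, not used, gave -2.67 and 2.51 in that set. The 2 urea carriers of family Slc14 were not called and reached no unadjusted p under 0.05 in limma.

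Apart from Slc6a6 and Slc10a2, 10 more genes had too few complete sets for a test. Slc12a9 was positive on its 4 arrays, from 0.09 to 0.68. Slc2a2, Slc3a1, Slc5a7, Slc12a3, Slc22a8, Slc24a3, Slc25a3, Slc25a27 and Slc44a4 each had values on both sides of 0.

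The dye orientations were compared for every carrier. The difference between the 2 arrays of a set was tested in limma over all genes, and 0 of 153 carriers and 0 of 10088 genes passed, the lowest adjusted p being 0.124 and 0.106. At an unadjusted p under 0.05 the counts were 43 of 153 and 2655 of 10088, more than this threshold gives by chance. With at most 3 differences per gene, the 0 does not show that the orientations agreed. Of the carriers tested, 12 had all 3 arrays of one orientation above 0 and all 3 of the other below, and none of these 12 was called. Among the 57 called carriers, 11 had arrays of both signs. Leaving these 11 out, 20 rose and 26 fell.

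**Figure D4:**
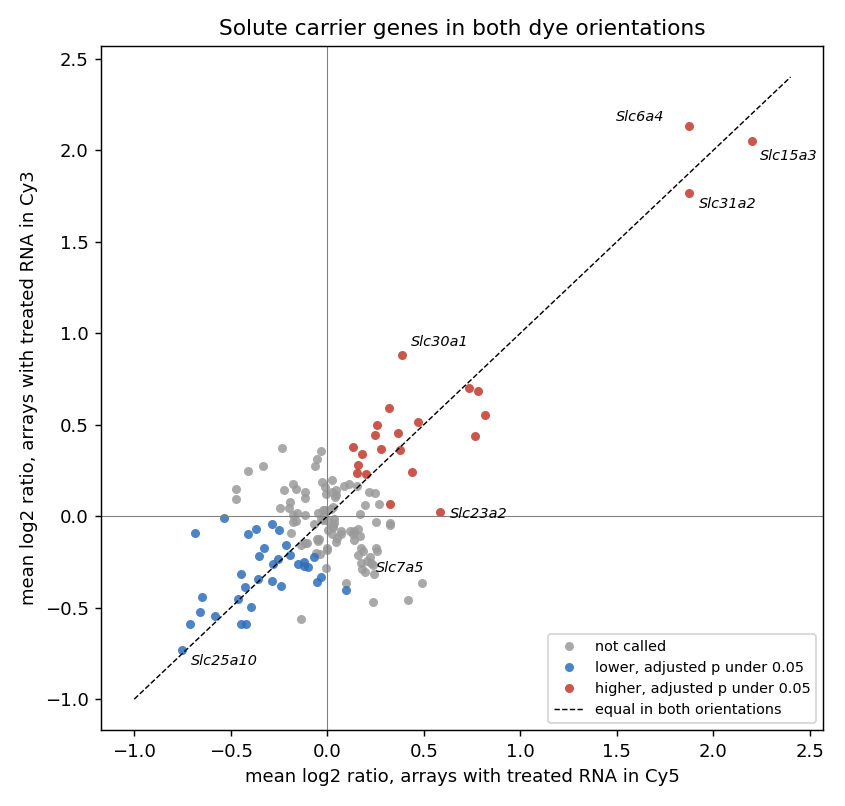
Mean log2 ratio (treated over untreated) over reversed arrays (treated RNA in Cy3, vertical axis) against that over forward arrays (treated RNA in Cy5, horizontal axis), 1 point for each of 153 carriers. Colours give the call at an adjusted p of 0.05, and the dashed line marks equal values. Slc15a3, Slc6a4 and Slc31a2 lie near the line at the upper right, whereas Slc7a5 (0.20 and -0.25) lies in the quadrant where the orientations have opposite signs.

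Other transport genes were counted in the same fit. Of 18 carriers that belong to solute carrier families under other symbols, 3 rose and 5 fell, among them Mfsd2a, a lipid carrier, at 0.53 ± 0.11 and Ctns, the lysosomal cystine exporter, at -0.55 ± 0.03. Of 7 organic anion carriers (Slco symbols), 0 passed in limma and 2 had an unadjusted p under 0.05. Of 8 ancillary proteins of carriers, 1 rose, the kinase gene Sgk1 (0.28 ± 0.13), and neither of the 2 sodium pump subunits tested passed at an adjusted or unadjusted p under 0.05. ATP-binding cassette transporters, which pump their substrates with ATP, had 4 of 30 higher and 10 lower. The largest rises were those of Tap1 (2.37 ± 0.13) and Tap2 (1.28 ± 0.18), and the largest fall that of Abcc3 (-0.50 ± 0.11). Their called share was 46.7%, beside 34.2% of all genes tested.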

How the data were processed

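The authors deposited log2 ratios, 1 per feature and array. The base was read from the largest value, 6.643856, which is log2 of 100. The sources used here do not give the scanner, the background correction or how dyes were balanced. Each array's median ratio was 0. The sign was turned on the 3 reversed arrays. Features with 1 gene symbol in the platform annotation were used (13738 of 16281, with 52 holding several and 2491 none). Exact zeros, 1328 to 2262 per array, were taken as not measured. Of 226 carrier features, 170 were measured on all 6 arrays, 48 on some and 8 on none. A gene's value averaged its features measured on all 6 arrays, or, with none, was its most complete feature.

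Means of both arrays of a set were tested against 0 with lmFit and eBayes (limma 3.58.1, R 4.3.3), and dye orientations through the differences within sets. The procedure was tested on simulated data. The members and the gene lists were chosen with earlier results of these data known. Classes follow the family number of the symbol, and are described by counts and medians without a set test. The text names the 12 carriers that rose most and the 12 that fell most among called carriers with 1 sign on all arrays measured, the largest rise and fall called in each class, and 18 carriers picked for their known roles, of which those on the array are given. Other carriers named with values were chosen after these were seen. The lists counted beside them were carriers under other symbols, Slco carriers, ancillary proteins, the sodium pump, ATP-binding cassette transporters and cell type markers. Alternatives covered zeros, replicate unit, dye orientation, normalization between arrays, averaging of features, a 1.5-fold threshold and leaving out each set.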

Additional observations from a re-analysis of the deposited data

How the results depend on the processing

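The number of arrays limits these results, and no signal over background could be set against them. The counts of 23 higher and 34 lower carriers moved by over 1.5 times under few other settings. On reversed arrays alone 20 were lower. A test against 1.5-fold called 3 higher and 0 lower. Leaving out 1 set gave 16 to 24 higher and 14 to 34 lower, the fewest without set 3, where 30 carriers were called. Of the calls, 30 of 30 without set 3, 46 of 53 without set 1 and 50 of 58 without set 2 were among the 57, as were 40 of 53 on forward arrays alone and 31 of 37 on reversed arrays alone. Medians of the carriers without 1 set ran from -0.03 to -0.01.

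Within classes, called counts on reversed arrays alone were 7 for inorganic ions, 6 for mitochondrial carriers, 1 for carboxylates, 3 for nucleosides, vitamins and lipids and 1 for organic ions. Against 1.5-fold they were 1 each for amino acids, metals and neurotransmitters and 0 for inorganic ions, mitochondrial carriers, carboxylates, nucleosides, nucleotide sugars, organic ions and sugars. Without 1 set they ran from 2 to 7 for amino acids, 5 to 11 for inorganic ions, 4 to 8 for metals, 6 to 10 for mitochondrial carriers, 0 to 2 for carboxylates, 1 to 3 for neurotransmitters, 4 to 6 for nucleosides, 5 to 6 for nucleotide sugars, 1 to 3 for organic ions and 1 to 6 for sugars. Class medians without 1 set ran from -0.0665 to 0.0065 for carboxylates, 0.0166 to 0.0395 for organic ions, -0.09 to 0.0606 for neurotransmitters, -0.0478 to 0.0228 for nucleosides and -0.0295 to 0.0192 for inorganic ions. The median of the 2 urea carriers was 0.0588 with zeros kept and 0.0554 with all features averaged. The fit with zeros kept also averaged all features, so it does not show the effect of zeros alone. A second feature of Slc14a2, at 2.66 on the reversed array of set 1 only, entered both fits.

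The set numbers gave no firm pairing: deviations of same-numbered arrays from their orientation's mean correlated at 0.26, 0.21 and 0.10 in the ratios as deposited. The reversed array of set 3 deviated more like the forward array of set 2 (0.11). In these ratios a treatment difference shared by both arrays of a set would correlate negatively. A deviation of the same sign on both arrays cancels in the set mean. The SD over sets and the p-values therefore leave it out and may be too small. Its cause was not tested. The 6 arrays with a dye term called 28 higher and 32 lower without a replicate block and 28 and 31 with it, and the block gave 8 called nucleoside, vitamin and lipid carriers. With the block the call of Slc25a11 was lost (adjusted p = 0.0668) and Slc1a5 was called (adjusted p = 0.0269).

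Reversals were examined for the named genes, and 5 that were not called reversed. Slc29a3 was 0.0015 after median centring, 0.18 on reversed arrays alone and -0.0109 to 0.0143 without 1 set. Slc7a5 was 0.20 on forward arrays alone and -0.0555 to 0.0146 without 1 set. On reversed arrays alone Slc16a3 was 0.10, Slc1a5 -0.0457 and Slc25a1 0.0008. Without 1 set Slc16a3 ran from -0.068 to 0.0254 and Slc25a1 from -0.0238 to 0.0011. The cause was not tested for any of these.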
